A study of Mus musculus with 4 samples.

Results

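The genes for the proteins of the cytosolic ribosome were followed in group 2 innate lymphoid cells (ILC2s) of mouse lung, comparing cells with and without an intact Nrp1 gene. The members were the protein-coding genes of the authors' deposited table named Rpl or Rps plus a number, optionally with a closing a, l, x or y, together with Rpsa, Rplp0, Rplp1 and Rplp2. These names gave 81 of the 38697 genes in the table, of which 50 belong to the large and 31 to the small subunit. An adjusted p was given for 80 of them, 49 large and 31 small, among 19193 genes tested. Rpl10l had none.

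All groups were C57BL/6 mice treated with bleomycin, which injures the lung, and ILC2s were sorted from the lung. WT was the genotype R5/+ and KO was R5/+ Nrp1f/f, so both genotypes carried 1 R5 allele, a knock-in reporter that expresses Cre from the Il5 gene. Deletion of the floxed Nrp1 gene is therefore limited to cells that have expressed Il5. Each genotype had 2 samples, each a pool of 3 to 4 mice. The study asked how neuropilin-1, a co-receptor for semaphorins and growth factors, acts in lung ILC2s.

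The ribosome reads messenger RNA and joins amino acids into protein. Its small subunit decodes the message and its large subunit forms the peptide bond. Cytosolic ribosomal proteins are needed in near-equal numbers, and their messengers share a start of the 5' terminal oligopyrimidine (5'TOP) kind, a run of C and T letters through which mTOR and LARP1 control their translation. Lymphocytes that grow or secrete cytokines need many ribosomes.

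The shared start is shown first, because it is the best-known sequence feature of this family. By the rule used below it was not found in 3 scarce paralogues described further on. Nor was it found in 30 of 57 members with a mean normalized count of at least 50. The RefSeq promoter table (GRCm38.p6) held 60 of the 81 members. Each sequence below has 60 bases before the annotated start and 20 from it onward, on the gene's own strand, 5′ to 3′, with the longest run of C and T within 20 bases of the start in capitals.
Rpl4: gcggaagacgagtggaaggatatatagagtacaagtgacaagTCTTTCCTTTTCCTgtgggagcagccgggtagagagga
Rpl14: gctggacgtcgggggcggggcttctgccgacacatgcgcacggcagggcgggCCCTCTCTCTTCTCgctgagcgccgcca
Rpl35: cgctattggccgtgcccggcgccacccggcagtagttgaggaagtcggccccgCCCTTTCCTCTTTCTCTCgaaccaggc
Rpl38: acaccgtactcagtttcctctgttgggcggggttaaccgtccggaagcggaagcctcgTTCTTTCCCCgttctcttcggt
Rps6: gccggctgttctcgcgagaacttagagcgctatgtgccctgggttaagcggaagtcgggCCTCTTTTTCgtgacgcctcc
Rpsa: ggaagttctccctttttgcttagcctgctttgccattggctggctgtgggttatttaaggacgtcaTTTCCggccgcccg
Rpl3l: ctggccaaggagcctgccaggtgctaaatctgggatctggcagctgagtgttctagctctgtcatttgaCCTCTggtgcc
Rpl10l: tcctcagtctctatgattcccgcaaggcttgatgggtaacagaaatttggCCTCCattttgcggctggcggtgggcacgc
Rpl39l: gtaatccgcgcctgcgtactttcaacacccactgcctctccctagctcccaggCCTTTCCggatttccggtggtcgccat

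The windows lie at chr9:64173327-64173406 (plus strand) for Rpl4, chr9:120571457-120571536 (plus) for Rpl14, chr2:39005112-39005191 (minus) for Rpl35 and chr11:114668520-114668599 (plus) for Rpl38. Those of Rps6 and Rpsa lie at chr4:86857348-86857427 (minus) and chr9:120127706-120127785 (plus). Rpl3l is shown at chr17:24727766-24727845 (plus), Rpl10l at chr12:66284382-66284461 (minus) and Rpl39l at chr16:10170168-10170247 (plus). All are promoter sequence with the first transcribed bases of exon 1.

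Within 20 bases of the start, the run is 18 bases long in Rpl35, 14 in Rpl4 and Rpl14, and 10 in Rpl38 and Rps6, whereas it is 5 bases in Rpsa, Rpl3l and Rpl10l and 7 in Rpl39l. Rpsa and Rpl39l hold longer runs farther upstream, which were not counted. A run of at least 8 C or T within 20 bases of the start was found in 27 of the 57 members that had both a promoter in the table and a mean normalized count of at least 50 (47.4%). It was found in 0 of the 3 scarce members with a promoter (Rpl3l, Rpl10l and Rpl39l), in 297 of 1859 other abundant genes (16.0%) and in 5185 of 32472 other promoters (16.0%). Those other abundant genes had a mean normalized count of at least 1000, not 50. Of several promoters, the one nearest the start of the principal coding transcript was used for a member. For another abundant gene it was the first by position. These contrasts and those of the motifs below thus compare starts chosen in different ways. The annotated start can differ from the base used in these cells, so a window without the run is only a window without those letters. A counted run can also lie wholly before the annotated start, as that of Rpl4 does.

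Of 5 short motifs sought on both strands in the whole window of 250 bases before and 50 after the start, CCGGAAG, the core bound by ETS factors, was in 23 of the 57 abundant members (40.4%), against 19.3% of other abundant genes and 8.85% of all other promoters. AAGATGG, the YY1 core, was in 8 of the 57 (14.0%), against 7.58% and 6.35%. TATAAA was in 5 (8.77%), against 7.69% and 13.6%. GGGCGG, the SP1 core, was in 34 (59.6%), against 67.1% and 35.8%, and the pyrimidine word CTTTCC was in 29 (50.9%), against 28.1% and 26.7%. CTTTCC can overlap the pyrimidine run.

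Cytosolic ribosomal protein genes lay slightly lower in KO than in WT as a block, at the value that abundant genes in general had, and no member apart from the scarce paralogue Rpl3l passed the test. Values per library were not used here, since no column of them is headed by a sample's label, so each gene is given by the authors' deposited mean normalized count over all libraries (baseMean) and the log2 fold change with its standard error. The sign was turned so that positive means higher in KO. Every baseMean, fold change, standard error and p-value of a single gene given below is read from the authors' deposited table, and each ± is the standard error. Over the 80 tested members the median log2 fold change was -0.25, with quartiles of -0.28 and -0.20, which puts KO at 84.3% of WT at the median. In the same table the median over all tested genes was 0.08, and over the 2407 other tested genes with a baseMean of at least 1000 it was -0.25. Measured from the abundant-gene value, the members' median was 0.00561, so the sign of single members near it depends on where the fold changes are centred.

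Of the 80 tested members, 1 was higher in KO at an adjusted p under 0.05 (DESeq2-style columns, Benjamini-Hochberg), against 0.453% of all tested genes, and 0 were lower, against 0.099% (0.552% in either direction). Among the 73 members with a baseMean of at least 1000, 0 were lower, against 0.565% of the genes at that level. At an unadjusted p under 0.05, 11 members (13.8%) were lower, 7 of the large and 4 of the small subunit, against 3.95% of all tested genes, and 1 was higher, against 9.62%. Among genes of like abundance the share was higher still: 21.6% of the 2480 tested genes with a baseMean of at least 1000 had an unadjusted p under 0.05 in that direction, and 11 of the 73 members there (15.1%). A negative log2 fold change was found for 77 of 80 members, against 46% of all tested genes, and for 73 of the 73 members at a baseMean of at least 1000, against 92.9% of the genes there. After centring, which subtracts the median of the tested genes with a baseMean of at least 1000, 1 of the 80 members was called higher, against 1.17% of tested genes, and 0 lower, against 0.0104%. At an unadjusted p under 0.05, 0 of the 73 abundant members then differed in either direction, against 3.47%. The members' shares of calls in the lower direction were thus at or below those of genes of like abundance.

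With the sign read this way the deleted gene was lower in KO, which is not an independent check of the sign. In the authors' deposited table Nrp1 (ENSMUSG00000025810, GRCm38 chr8:128358604-128503363) fell in KO by 1.18 ± 0.21 (log2, SE; adjusted p = 1.27e-04), and its baseMean was 3771. ILC2 identity genes were abundant: the 12 markers tested (Gata3, Il1rl1, Il5 and others) had a median baseMean of 12783 and a median log2 fold change of -0.33, and 0 passed the test. Cell types that a lung sort can carry over were also present, the T cell, B and plasma cell, red cell, macrophage, epithelial, fibroblast and endothelial lists having 8, 8, 5, 6, 6, 5 and 4 tested members. Only Cd3g of the T cell list passed the test, in the lower direction (-0.96 ± 0.24, adjusted p = 0.0292), and its call was lost with every gene adjusted together (adjusted p = 0.0588) and after centring (-0.71, adjusted p = 0.103). The median of the T cell list was -0.30. The medians of the other lists were 1.03, 0.63, 0.41, 0.67, 0.78 and 0.42 in that order. Their median standard errors were large, at 0.85, 1.08, 0.59, 1.36, 1.17 and 0.51. The part of these cell types in the results on ribosomal proteins was not tested. In pooled bulk RNA, fewer cells of a type and less RNA per cell cannot be told apart, and the p-values measure only the spread between these pools.

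**Figure D1:**
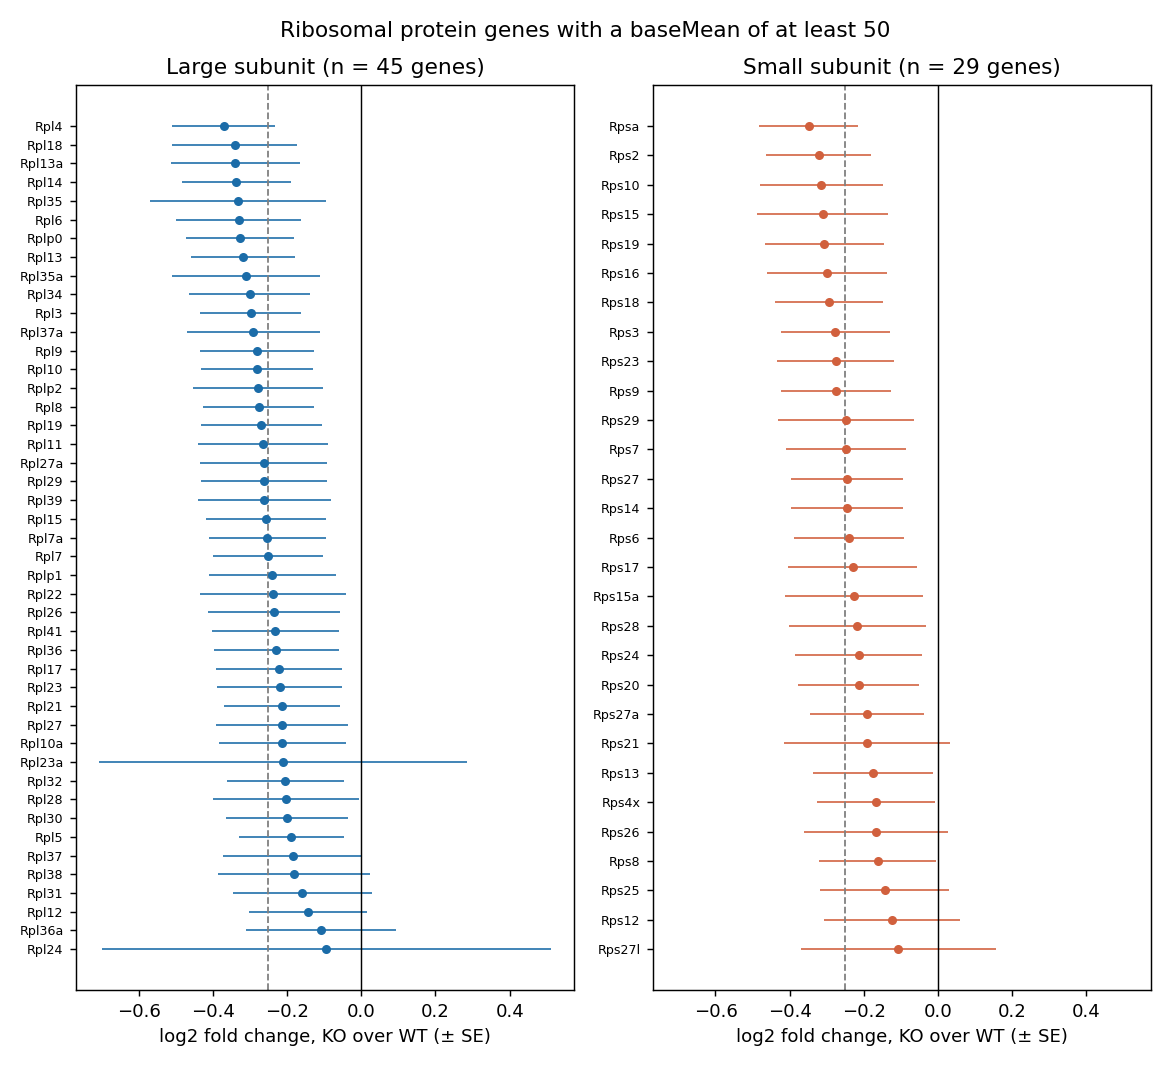
The log2 fold change (KO over WT, horizontal axis) of 74 of the 77 members with a baseMean of at least 50, ordered by value, large subunit in the left panel and small subunit in the right and bars are 1 standard error from the authors' deposited table. All points lie between -0.37 and -0.09, on both sides of the dashed line at -0.25, the median of tested genes with a baseMean of at least 1000.

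The members are among the most abundant messengers of these cells. Summed over the 81 members, baseMean came to 3.87% of the total over all genes in the authors' deposited table, 2.24% from the large and 1.64% from the small subunit. Ranked by baseMean, 7 members stood in the first 100 genes, 47 in the first 500 and 68 in the first 1000. The fitted means of the groups, computed from baseMean and fold change with equal group sizes, gave a summed level for KO of 83.2% of WT, with 83.0% for the large and 83.5% for the small subunit, against 88.7% for all genes together. As a share of all counts, the members were at 3.99% in WT and 3.74% in KO. No such share was computed for other abundant genes. At the median, KO stood at 84.3% of WT for the tested members. It stood at 84.0% for the other tested genes with a baseMean of at least 1000.

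Per length, the members differed from each other by far more than the genotypes did. Over the 77 members with a baseMean of at least 50, baseMean per kilobase of annotated exon had a median of 2650 and quartiles of 1469 and 5143, a 3.50-fold spread. The small subunit median was 3057 and the large subunit median 2259. Rplp1, a P-stalk protein, was the highest at 16822, and Rpl36 at 12669 and Rplp0 at 9815 were also near the top. Rpl24 at 70.3 and Rpl23a at 131 were the lowest, and Rpl22 at 569, Rps27l at 631 and Rpl35 at 654 came next. With the longest annotated transcript in place of the exon union, the median became 4279, and with the principal coding transcript 5703.

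**Figure D2:**
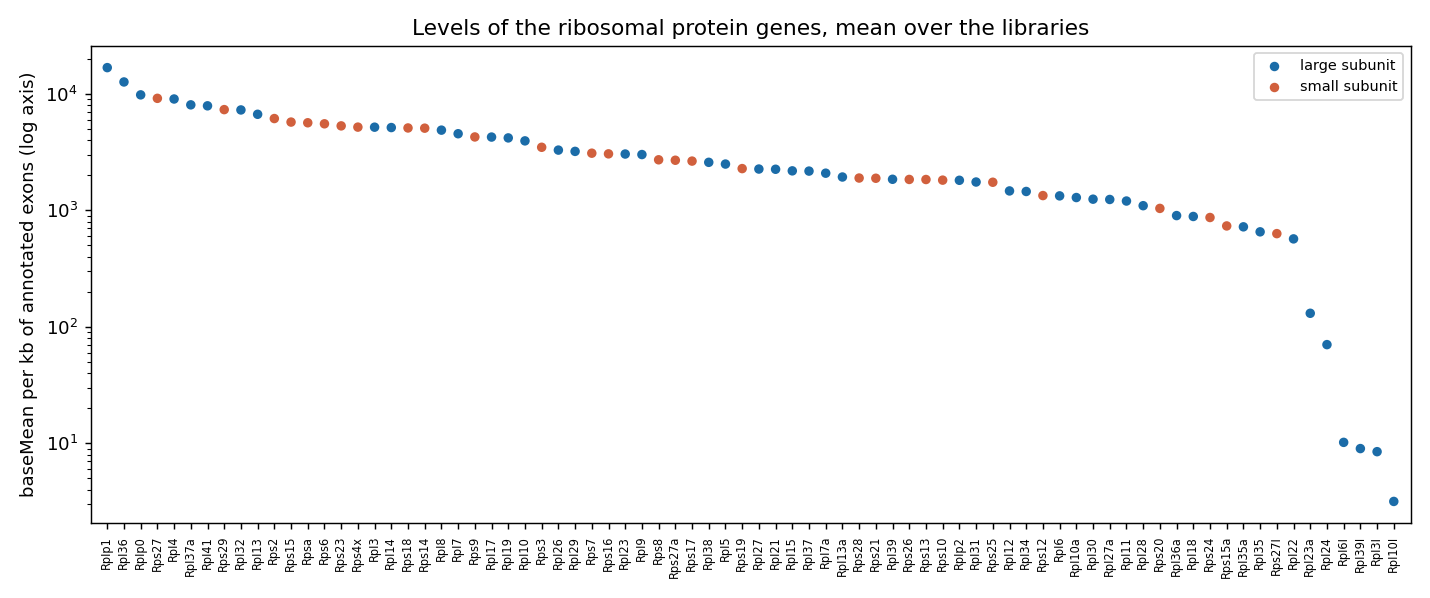
Levels of 78 of the 81 members as baseMean per kilobase of annotated exon (log axis), ordered by value and coloured by subunit. The quartiles of the 77 members with a baseMean of at least 50 are 1469 and 5143, and Rpl3l, Rpl6l, Rpl10l and Rpl39l lie at 10.2 or below.

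Some members, among them Rpl24, Rpl23a and Rpl35 of the lowest in level, need care with read assignment. The mouse genome holds many near-identical copies of these genes, mostly processed pseudogenes made from their messengers. A search of the members' coding sequences against the GENCODE M21 transcripts (at least 95% identity over at least 80% of the coding sequence) found at least 1 copy for 74 of 80 members and none for 6, among them Rpl3l, Rpl8, Rpl39l, Rps3 and Rps27l. The 573 distinct copies included 541 processed pseudogenes; Rpl21 had 57 copies. The copies' summed baseMean was 2.02% of the member's own at the median. Among the members with a baseMean of at least 50 it was over 10% for 5. For Rpl23a it was 545%, since the member itself stood at 111 and its 19 copies at 604 together, with 454 for Gm10132, which is 99.8% identical. The shares were 39.7% for Rpl24, 36.8% for Rpl35, 31.7% for Rpl13a and 16.9% for Rpl21. For Rpl10l, which has a baseMean of only 3.24, it was 34.4%. The levels and fold changes of these 5 genes and of Rpl10l are uncertain for that reason.

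Among the 207 copies that were tested, the median log2 fold change was -0.02 and 1 passed the test. This was Gm11942, a copy of Rplp1, which the authors' deposited table gives at 2.16 ± 0.51 with a baseMean of 115 (adjusted p = 0.0209). The 29 copies with a baseMean of at least 100 had a median of -0.21, near the value of the members, and 25 were negative. All tested genes with a baseMean from 100 to 1000 had a median of -0.15, and 69.8% of them were negative. The 109 copies with a baseMean under 20 had a median of 0.35, whereas all tested genes under 20 had a median of 1.79, and 15 of the 109 lay above the running median of genes of like abundance. The median of these scarce copies was nearer to that of the members than to that of other scarce genes. Of the 223 pseudogenes named after ribosomal proteins 74 were tested, 0 passed the test, the median was -0.07 and 7 lay above the running median.

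**Figure D3:**
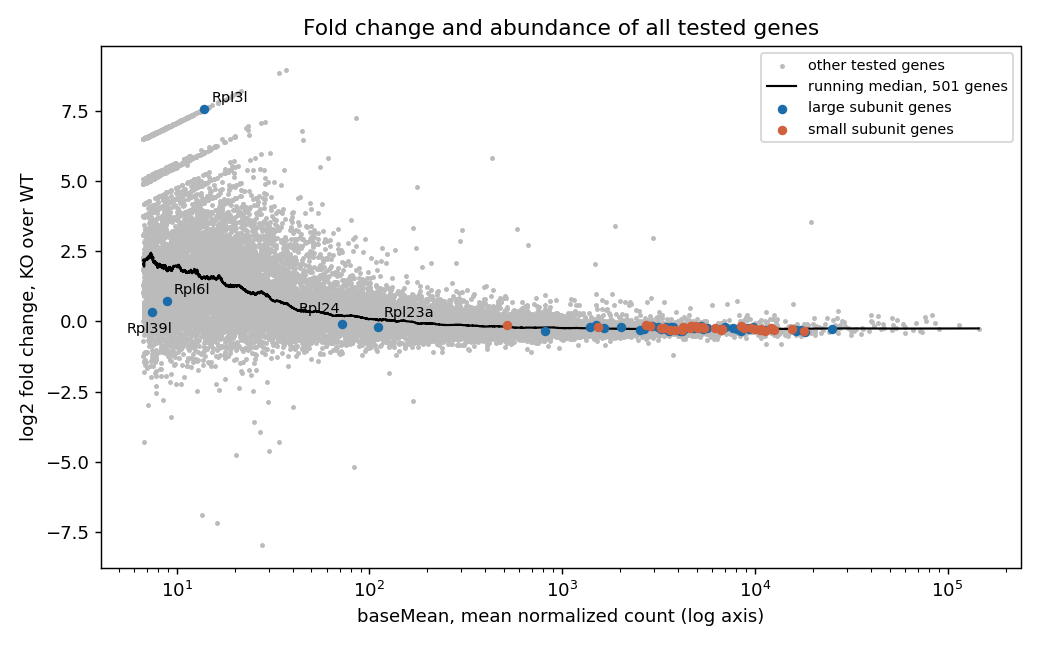
Log2 fold change (KO over WT) against baseMean (log axis) for all tested genes in grey, with a running median over neighbours in baseMean in black and the members in colour. The median of all genes under a baseMean of 20 is 1.79 and that of genes at 1000 or more is near -0.25, and the 73 members with a baseMean of at least 1000 lie on that flat stretch. Rpl24 and Rpl23a lie on the slope, under the running median.

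The members' fold changes lay close together. Over the 77 members with a baseMean of at least 50 the log2 fold changes ran from -0.37 to -0.09 with an SD of 0.0618, while their median standard error was 0.167. Their SD was thus 0.370 of the error given for a single member. The other 2407 tested genes with a baseMean of at least 1000 had an SD of 0.230 and a median standard error of 0.190. Within 0.1 of the abundant-gene median lay 70 of the 77 members (90.9%), against 50.4% of the other abundant genes. The 95% interval of 68 of the 80 tested members contained 0, and that of 79 contained the abundant-gene median. These counts describe the 2 lists and are not a test.

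**Figure D4:**
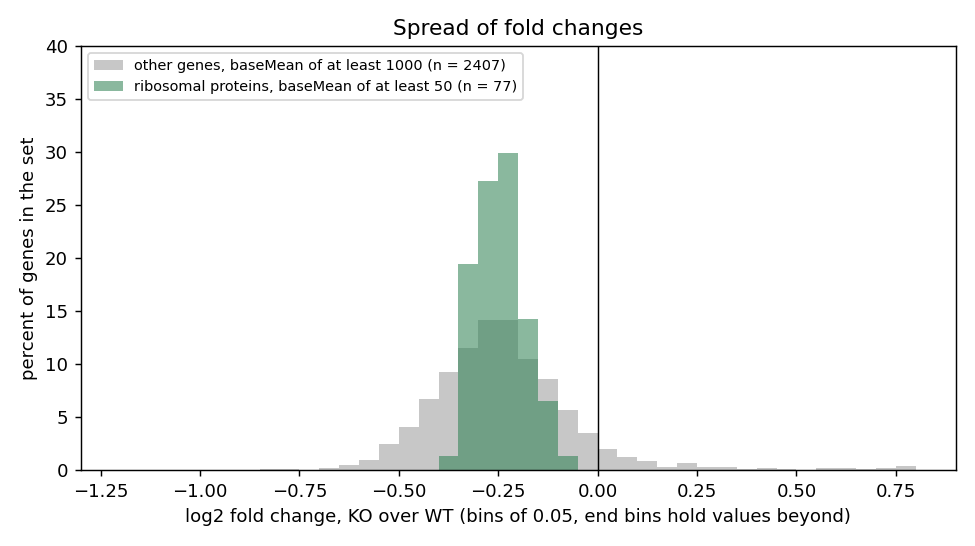
Share of genes (percent, vertical axis) in bins of log2 fold change (KO over WT), for the 77 members with a baseMean of at least 50 in green and the 2407 other tested genes with a baseMean of at least 1000 in grey. Both sets peak near -0.25, with an SD of 0.0618 for the members and 0.230 for the other genes.

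Large and small subunit had like medians. The median over the 49 tested large subunit genes was -0.25, with quartiles of -0.28 and -0.20, and over the 31 small subunit genes it was -0.25, with quartiles of -0.29 and -0.19. The difference of the medians, large minus small, was -0.0058, and -0.0207 after each member's running median was subtracted. Genes are not replicates of a genotype, so this difference has no test.

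The members at the low end belong to both subunits. Rpl4, which lines the tunnel through which the new protein leaves the ribosome, had the lowest log2 fold change at -0.37 ± 0.14 (unadjusted p = 0.00759, adjusted p = 0.169) and a baseMean of 18156. Its fitted means were 20474 in WT and 15838 in KO, 77.4% of WT. Rpsa, a small subunit protein also known as the laminin receptor precursor, came next at -0.35 ± 0.13 with a baseMean of 17920 (adjusted p = 0.181). Neither passed the test after adjustment.

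The remainder of the low end was made of Rpl18, Rpl13a, Rpl14, Rpl35, Rpl6 and Rplp0, all of the large subunit, at -0.34, -0.34, -0.34, -0.33, -0.33 and -0.33 in the authors' deposited table. Their standard errors ran from 0.15 for Rpl14 and Rplp0 to 0.24 for Rpl35, and the lowest adjusted p was 0.262, for Rpl14. None of these passed the test.

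At the other end, setting the scarce paralogues aside, Rpl24 stood at -0.09 ± 0.61 with a baseMean of only 72.4. Rps27l, a p53-induced relative of Rps27, stood at -0.11 ± 0.26, Rpl36a at -0.11 ± 0.20 and Rps12 at -0.12 ± 0.18. Rps25, which some viral messengers need for their entry into the ribosome, and Rpl12 of the P stalk both stood at -0.14, with standard errors of 0.17 and 0.16. For these 6 genes the authors' deposited table gives adjusted p-values of 0.742 or above.

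Read against abundance, members with more counts lay a little lower. Across the 77 members Spearman's rank correlation between log2 fold change and baseMean was -0.41, with -0.34 in the large and -0.56 in the small subunit, against -0.06 across the 2407 other abundant genes. In the 26 members of lowest baseMean the median was -0.22 and 1 had an unadjusted p under 0.05. In the 26 in the middle the median was -0.23 with 2 such genes, and in the 25 highest it was -0.28 with 8. The rank correlation was -0.40 with the length of the coding sequence and -0.17 with the length of annotated exon. These are descriptions across genes that share the same libraries, and baseMean also enters the error of each value.

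The medians of members with and without these sequence features were as follows. The 27 abundant members with the pyrimidine run, among them Rpl4, Rpl14 and Rps6, had a median of -0.26, and the 30 without it, among them Rpsa, had -0.24. The 23 with CCGGAAG had a median of -0.26 and the 34 without it also -0.26. The widest gap was that of GGGCGG, with -0.27 in the 34 members that hold it and -0.24 in the 23 that do not. The medians with and without the motif were -0.25 and -0.26 for AAGATGG, -0.26 and -0.25 for TATAAA, and -0.26 and -0.25 for CTTTCC. None of these differences was tested.

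The functional groups within the ribosome gave medians close to each other. The P stalk, which recruits the elongation factors, had 4 genes with a median of -0.26: Rplp0 at -0.33 ± 0.15, Rplp1 at -0.24 ± 0.17, Rplp2 at -0.28 ± 0.17 and Rpl12. The 4 genes tied to the 5S particle and to the control of p53 through Mdm2 (Rpl5, Rpl11, Rpl23 and Rpl26) had a median of -0.23, with Rpl5 at -0.19 ± 0.14 and Rpl11 at -0.27 ± 0.18. The 9 genes at the exit tunnel had -0.24 and the 14 of the small subunit head -0.26. No gene of these groups passed the test.

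The 16 genes whose loss causes Diamond-Blackfan anaemia, a failure of red cell formation, had a median of -0.24, an SD of 0.0467 and 0 calls. Rps19, the gene most often affected in that disease, stood at -0.31 ± 0.16 with a baseMean of 10702 (adjusted p = 0.383). Rps6, the substrate of S6 kinase, stood at -0.24 ± 0.15 (adjusted p = 0.481), and Rps3, which also takes part in DNA repair and NF-kappaB signalling, at -0.28 ± 0.15. Rpl38 and Rpl10a, often discussed as selective for certain messengers, stood at -0.18 ± 0.20 and -0.21 ± 0.17. Rps27a, made as a fusion with ubiquitin, stood at -0.19 ± 0.15, and Rpl22, which has a role in lymphocyte development, at -0.24 ± 0.20.

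Ribosomal proteins whose names fall outside the rule lay in the same range. Of 8 such genes 0 passed the test and the median was -0.28. Rps3a1 stood at -0.36 ± 0.13 with a baseMean of 13355, Fau at -0.29 ± 0.19 and Rack1, listed as Gnb2l1, at -0.22 ± 0.15 in the authors' deposited table.

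The paralogues were the exception to the tight range. Several ribosomal proteins have a second gene with expression limited to some tissues: Rpl3l to heart and skeletal muscle, and Rpl10l and Rpl39l to the male germ line. Rpl3l (ENSMUSG00000002500, GRCm38 chr17:24727820-24736143, plus strand) rose in KO by 7.56 ± 2.06 on the log2 scale (adjusted p = 0.0467), and the authors' deposited table gives it a baseMean of 13.9. Its baseMean was 0.0846% of that of Rpl3, the gene it resembles, which stood at -0.30 ± 0.14 with a baseMean of 16450 (adjusted p = 0.295).

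The size of the Rpl3l value is that of a gene with next to no counts in WT. Its fitted means were 0.147 normalized counts in WT and 27.7 in KO, so the log2 value is a fitted one and no measured fold is given. A fitted WT mean under 0.2 was shared by 344 tested genes, with log2 fold changes from 6.51 to 8.98, and 23 of them (6.69%) were called higher, of the 87 called higher in all. In the plot of fold change against abundance these genes form the upper edge on the left. The running median at the baseMean of Rpl3l was 1.58.

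The call for Rpl3l was close to the threshold. Its adjusted p became 0.0942 when every gene with a p-value was adjusted together and 0.0556 with protein-coding genes alone, so it was lost in both, and it has too few counts for an adjustment over genes with a baseMean of at least 50. After centring on abundant genes, which raised every value by 0.25, it was 0.0264. The gene next to it on the same strand, Msrb1, 498 bases away, stood at -0.08 ± 0.75 with a baseMean of 45.6, and Rps2, 5890 bases away on the other side, stood at -0.32 ± 0.14 with a baseMean of 11246.

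Of 20 striated muscle markers, listed because Rpl3l is a muscle gene, 11 were tested, 0 passed the test and all 11 had positive values, with a median of 1.63. Ryr2, the calcium release channel of heart muscle, stood at 3.26 ± 0.95 with a baseMean of 51.8 (adjusted p = 0.0669), and Ttn, the giant protein of the sarcomere, at 0.85 ± 0.29 with a baseMean of 511 (adjusted p = 0.134). Myl4 stood at 2.17 ± 1.04, Myh6 at 1.37 ± 1.10 and Actc1 at 0.93 ± 1.27 in the authors' deposited table. After centring, which raised every value by 0.25, Ryr2 and Ttn passed at adjusted p of 0.0316 and 0.0264. That step also took the calls higher in KO among all tested genes from 87 (0.453%) to 225 (1.17%). The tested genes under a baseMean of 20 had a median of 1.79, those from 20 to 100 of 0.50 and those from 100 to 1000 of -0.15. Measured from the running median of genes of like baseMean, the 11 markers had a median of 0.61, and 8 lay above it. The part of muscle RNA in the Rpl3l value was not tested.

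The other tissue-restricted paralogues were near the limit of what the libraries held. Rpl10l had a baseMean of 3.24, a log2 fold change of 5.46 ± 3.23 and an unadjusted p of 0.0909, with no adjusted p. Rpl39l had a baseMean of 7.48 and stood at 0.35 ± 1.85, and Rpl6l, which GENCODE M21 lists as a processed pseudogene, had 8.87 and stood at 0.73 ± 1.63. Measured from the running median of genes of like baseMean, Rpl39l lay at -1.91 and Rpl6l at -1.12. Of 10 testis germ cell markers 5 were tested, 0 passed and the median was 1.86. At these levels a difference between the genotypes was not detectable for Rpl10l, Rpl39l or Rpl6l.

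The paralogues that many tissues express were closer to their partners. Rps27l had 5.39% of the baseMean of Rps27, which stood at -0.25 ± 0.15. Rpl22l1 had 39.4% of that of Rpl22 and stood at -0.36 ± 0.24, and Rpl36al had 62.1% of that of Rpl36a and stood at -0.02 ± 0.23. Rpl7l1 had 6.92% of that of Rpl7, with -0.27 ± 0.22 beside -0.25 ± 0.15. None of these genes passed the test.

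Genes that work with the ribosomal proteins gave no call either. Of 20 other transcripts with a 5'TOP start 0 passed the test, with a median of -0.25 and an SD of 0.124. Eef1a1, the most abundant elongation factor, stood at -0.34 ± 0.13 with a baseMean of 71974 (adjusted p = 0.181), Eef2 at -0.29 ± 0.13 and Eif4b at -0.36 ± 0.16. Of 44 ribosome biogenesis genes 0 passed, with a median of -0.21 and an SD of 0.221. Among these Noc2l stood at -0.50 ± 0.23 and the RNA polymerase I factor Rrn3 at -0.51 ± 0.26.

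Of 20 genes of mTOR, S6 kinase, LARP1 and MYC control 0 passed the test, with a median of -0.21. Max, the partner of MYC, stood at -0.57 ± 0.24 (adjusted p = 0.231), Myc at -0.35 ± 0.16, the mTOR inhibitor subunit Tsc2 at -0.38 ± 0.19 and the mTORC1 subunit Rptor at -0.44 ± 0.24 in the authors' deposited table. The 76 mitochondrial ribosomal protein genes, which serve a separate ribosome, had a median of -0.20, an SD of 0.199 and 0 calls, and Mrps24 stood at -0.53 ± 0.29. Inside 29 members lie 56 small nucleolar RNA genes, which guide chemical marks on ribosomal RNA, and of the 15 that were tested 0 passed. Those 15 had low counts, with baseMeans from 6.94 to 65.3 and standard errors from 0.64 to 1.87.

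**Figure D5:**
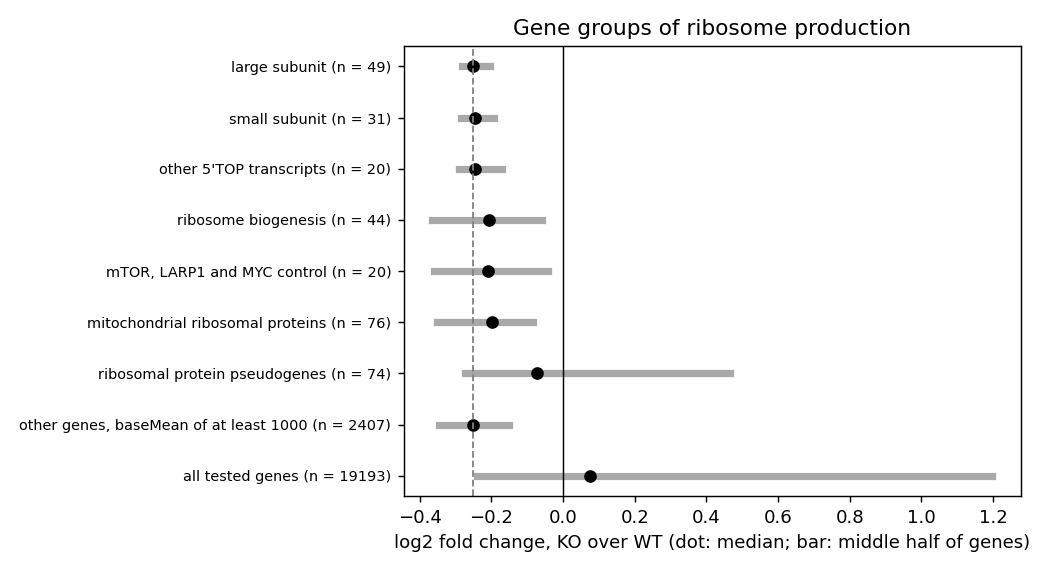
Median (dot) and range between the quartiles (bar) of the log2 fold change (KO over WT) in each list, with the dashed line at -0.25 for abundant genes. The 2 subunits and the other 5'TOP transcripts have their medians at -0.25, the biogenesis, mTOR and mitochondrial lists between -0.21 and -0.20, the pseudogenes at -0.07 and all tested genes at 0.08.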

How the data were processed

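RNA of sorted lung ILC2s was measured in 2 WT and 2 KO samples, each a pool of 3 to 4 mice, grouped by their genotype labels. The submitters' processing notes name HISAT2, Cufflinks and mm10 but assign them no step. Which counter and annotation were used was not given in the sources used here. Full-length cDNA came from the SMART-Seq HT kit, per the labels' protocols.

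The authors deposited, per the file headers, a mean normalized count (baseMean, a signal), the log2 fold change and its error, a statistic (score) and the raw and adjusted p-value, under the headings of a DESeq2 table. Another 8 columns of values per library match no sample label and were not used, so depth per library and replicate spread were not analysed here. Which genotype is the numerator is not written in the table. WT comes first in its name, and the sign was therefore reversed, a reading that also puts Nrp1 lower in KO. Were KO the numerator, every direction here would be the opposite, that of Nrp1 too. The statistic equalled fold change over error within 5.35e-08, and Benjamini-Hochberg adjustment over the 19193 tested genes (lowest baseMean 6.71) differed from the deposited values by at most 3.96e-05.

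The members and lists were chosen with earlier results of these data known, so lists are given by counts and medians with no test. Named were members past the threshold, the 8 highest and 8 lowest fold changes, the 5 highest baseMean of each subunit, members with no adjusted p, paralogue pairs, a fixed set of well-known members and, of each other list, up to 4 genes of smallest p. Neighbours of Rpl3l, near-identical copies, other members of the functional groups and the genes of levels per length were chosen after their values were seen.

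Centring subtracted -0.25, the median log2 fold change of tested genes with a baseMean of at least 1000. A running median was taken over neighbours in baseMean. Fitted group means take baseMean as the mean of equal groups. Lengths and positions are from GENCODE M21 (GRCm38, mm10), promoters from RefSeq (GRCm38.p6), and copies from blastn 2.17.0. Adjustment and the running median were tested on simulated data (Python 3.11.15, pandas 2.3.3, scipy 1.17.1). A few genes are not reported here by name and are left out of the plots of single members, but stay in every count and median.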

Additional observations from a re-analysis of the deposited data

How the results depend on the processing

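The count of ribosomal proteins past the test was 1 as deposited (Rpl3l). It was 0 when all genes with a p-value were adjusted together, 0 over genes with a baseMean of at least 50, and 0 over protein-coding genes alone, and stayed at 1 with a threshold of 0.1 and after centring on abundant genes. Losing Rpl3l over genes with a baseMean of at least 50 follows from its own baseMean of 13.9. The cause was not tested for the others. The median of -0.246 became 0.00561 after centring on abundant genes and 0.0118 after subtracting the running median. It lay between -0.252 and -0.246 under the other alternatives. Large minus small lay between -0.0207 and -0.00549 throughout. The median level per kilobase, 2650 with the exon union, was 4279 with the longest transcript and 5703 with the principal coding transcript, the last chosen after seeing the data, as was leaving out members with many copies.

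Centring turned the sign, though none passed the test, of Rack1 (0.0358), Rpl10a (0.0389), Rpl12 (0.107), Rpl22 (0.0141), Rpl23 (0.0311), Rpl24 (0.158), Rpl26 (0.0155), Rpl36a (0.143), Rpl36al (0.234), Rpl38 (0.0703), Rpl5 (0.0633), Rplp1 (0.0116), Rps12 (0.127), Rps14 (0.00577), Rps25 (0.108), Rps27 (0.00545), Rps27a (0.0588), Rps27l (0.144), Rps4x (0.0843) and Rps6 (0.0122). Over the named genes and these settings, 509 results kept direction and side of the threshold, 20 reversed, 4 lost the call and 3 gained it. Nrp1 passed in all 5 alternatives.

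No paired analysis was possible because no column of values per library matched a sample label, and leaving out a replicate was not run for the same reason. With 2 pools a genotype, the median standard error of the tested members was 0.168 on the log2 scale.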
